A study of Homo sapiens with 9 samples.

Results

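The collagen genes of MIA PaCa-2 cells, an established human pancreatic cancer cell line, were followed through inhibition of ERK1/2 and of TBK1/IKKε. A gene counted as a collagen gene where the count table lists it as protein-coding and its symbol has the form COL, a number, A and a number. This gave 44 of the 58735 genes in the table, among 19951 protein-coding genes. RNA was sequenced after 24 h with 1 μM SCH772984 (an inhibitor of the kinases ERK1 and ERK2), with 1 μM compound 1 (an inhibitor of both TBK1 and IKKε) or with 0.1% DMSO alone, in 3 libraries each. All 9 libraries came from cells labelled wild type and kept in the same serum-containing medium, so they describe 1 cell line at 1 dose and 1 time point. The labels do not say whether the 3 libraries of a group came from separate cultures, and p-values therefore measure only the spread between these libraries.

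Collagens are secreted or membrane proteins in which 3 chains wind into a triple helix, and each chain is encoded by a gene of its own. Fibrillar collagens (types I, II, III, V, XI, XXIV and XXVII) form the fibres of connective tissue, type IV forms the sheets of basement membranes, and type VI forms beaded filaments around cells. In pancreatic tumours the bulk of the collagen-rich stroma is usually attributed to fibroblasts and stellate cells, while carcinoma cells make a collagen set of their own.

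Library totals were 9464432 to 13887859 counts, and the SCH772984 libraries were the deepest at 11056977 or more. The carcinoma keratins KRT8, KRT18 and KRT19 and the mesenchymal intermediate filament VIM were expressed in all groups, but the epithelial marker EPCAM was at 0 in all 9 libraries and CDH1 was at 0 in DMSO. The 3 acinar markers were at 0 in all libraries, and no leukocyte marker passed 1 count in any library. Of 10 fibroblast and stellate cell markers, FBLN1 and ACTA2 were expressed in all groups and PDGFRB with SCH772984. FAP, POSTN, THY1 and DPT were at 0 in all 9 libraries, DCN and LUM were at 0 in DMSO and with compound 1, and PDGFRA had at most 6 counts.

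In DMSO the cells expressed 17 of the 44 collagen genes, taking a mean of at least 1 CPM (the count divided by the library's total and set to a common total, scaled by edgeR's TMM method over the 9 libraries) as expressed. These were COL1A2, COL3A1, COL5A1, COL5A2, COL5A3, COL11A2 and COL27A1 of the fibrillar class, COL4A1 and COL4A2 of the basement membrane, COL6A1, COL6A2 and COL6A3 of the beaded filaments, COL7A1, the anchoring fibril collagen, the transmembrane collagens COL13A1 and COL17A1, COL18A1, the precursor of endostatin, and COL26A1. The same 17 were expressed with compound 1. With SCH772984 the number was 20, since COL1A1, COL9A3, COL16A1 and COL20A1 passed 1 CPM and COL13A1 went below it.

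Of the 23 collagen genes that stayed under 1 CPM in every group and were called in no comparison, none had more than 8 counts in any library. COL6A5, COL9A1, COL25A1 and COL28A1 had no count in any of the 9 libraries. Over all 44 genes, 17 had at most 3 counts in each library, and among them were COL2A1, COL8A1, COL10A1, COL11A1, COL12A1, COL14A1 and COL15A1. The highest counts among the 23 belonged to COL9A2 and COL4A5 at 8 and to COL4A4 and COL8A2 at 7. On this scale 3 counts equal 0.201 to 0.331 CPM, so lower expression was not detectable.

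A pair of fibrillar chains made up most of the collagen mRNA. Per gene length, in FPKM (CPM divided by the merged exon length in kilobases), COL5A2, an α2 chain of type V, was the highest in DMSO at 147.6 ± 6.24 (SD, n = 3), and COL1A2, the α2 chain of type I, followed at 43.2 ± 2.19. COL18A1 (21.5 ± 1.06), COL6A1 (20.2 ± 1.47) and COL17A1 (19.4 ± 1.31) came next, and the ranges of neighbours within these 3 overlapped. COL6A2 had 12.4 ± 0.545, COL6A3 8.12 ± 0.377, COL4A2 2.04 ± 0.113, COL4A1 1.60 ± 0.123 and COL3A1 1.05 ± 0.0980 FPKM, each below the range of the gene before it. The 7 lowest, COL27A1, COL26A1, COL5A1, COL5A3, COL7A1, COL13A1 and COL11A2, lay between 0.653 and 0.185 FPKM, and from COL26A1 down each overlapped the gene above it. By CPM, COL5A2 ranked 87 among all genes in DMSO and 10 with SCH772984.

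**Figure D1:**
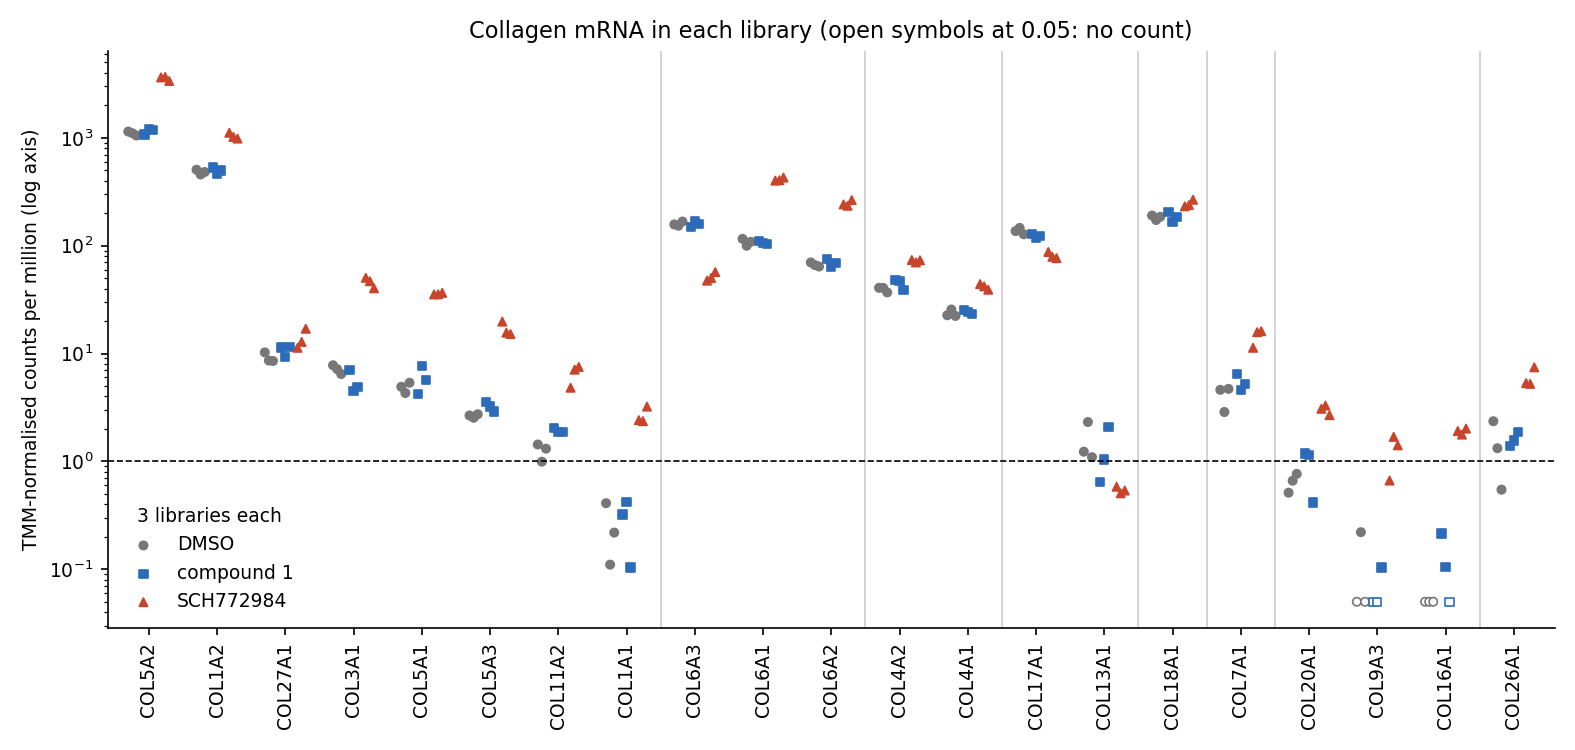
Level of the 21 collagen genes that reached a mean of 1 CPM in at least 1 group (x axis, ordered by class, with grey lines between classes) as TMM-normalised counts (CPM) on a log axis, 1 symbol per library (circles DMSO, squares compound 1, triangles SCH772984) and a dashed line at 1 CPM. The SCH772984 libraries lie above the DMSO libraries for COL5A2, COL1A2, COL6A1 and COL6A2 and below them for COL6A3, COL17A1 and COL13A1, and open symbols mark libraries with no count.

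Inhibition of ERK1/2 moved every collagen gene that could be tested, mostly upward. With SCH772984 against DMSO, 17 of 20 tested collagen genes were higher and 3 lower at an adjusted p under 0.05 (edgeR's quasi-likelihood test, Benjamini-Hochberg adjustment over all 13834 genes tested). Among all genes tested, 37.2% were called higher and 35.5% lower. At least 2-fold, 13 collagen genes were higher and 2 lower, against 18.2% and 10.6% of all genes tested. The median log2 fold change was 1.85 over the 20 collagen genes and 0.03 over all genes. COL1A1, COL16A1 and COL20A1 passed the filter on low counts only through the SCH772984 libraries and COL13A1 only through DMSO, so these 4 had to differ. Without them 14 of 16 were higher and 2 lower, with a median of 1.75, against 34.4% higher, 37.0% lower and -0.02 over the 13078 genes that passed likewise. At least 2-fold, 10 of the 16 were then higher and 1 lower, against 14.3% and 10.7%. The DMSO and SCH772984 libraries did not overlap in any of the 20, nor in 74.3% of all genes tested. The 3 genes called lower were COL6A3, COL17A1 and COL13A1. Since RNA was taken from whole cultures, more RNA per cell and a larger share of cells with a transcript cannot be told apart. Dividing by library size alone raised the log2 fold changes of all tested genes by a median of 0.17 and the share of higher genes among all calls from 51.2% to 61.5%, and it left the collagen counts at 17 and 3.

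**Figure D2:**
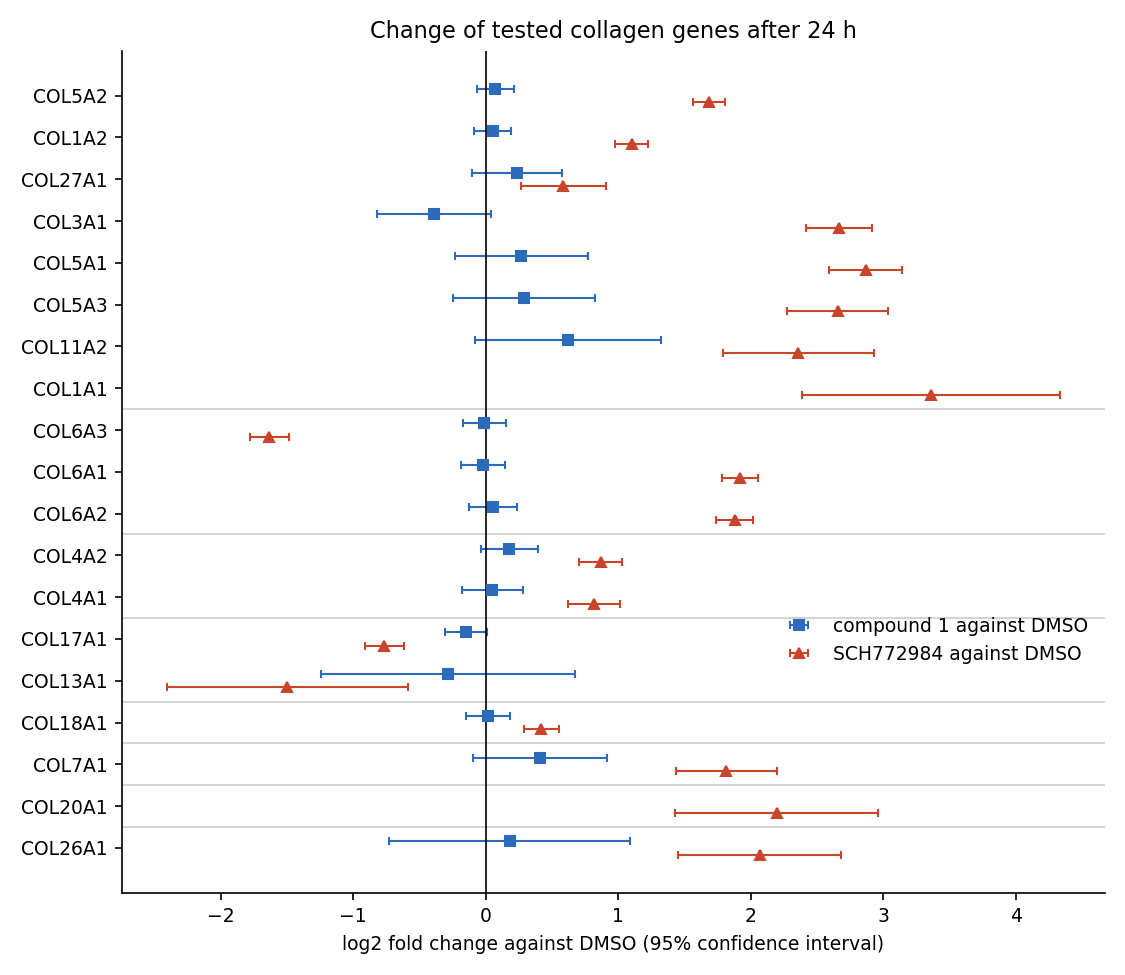
Log2 fold change of the tested collagen genes against DMSO (x axis, with 95% confidence intervals) after SCH772984 (triangles) and after compound 1 (squares), grouped by class. COL16A1, with no count in DMSO, is left out, and genes without a square did not pass the filter with compound 1. All SCH772984 intervals exclude 0, with COL6A3, COL17A1 and COL13A1 on the negative side, while all compound 1 intervals include 0.

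The sequences before the start sites were searched for short motifs as a description. COL3A1, COL5A2 and COL6A1 had no window, so COL6A1 could not be set beside COL6A3. The windows shown were chosen after the changes with SCH772984 were seen. RefSeq promoter windows (GRCh38.p14) were found for 32 of the 44 collagen genes. In the 250 bases before each RefSeq start, 5 motifs were searched on both strands. They were the TATA box TATAAA, the CCAAT box CCAAT, the GC box GGGCGG, the AP-1 site TGANTCA and the ETS core CCGGAAG, none of which contains another. The windows of COL5A1 and COL6A2, which rose, and of COL6A3 and COL17A1, which fell, are shown 5′ to 3′ along the gene, together with the 126 bases between the divergent starts of COL4A1 and COL4A2 on the plus strand. Capitals mark the motifs.
COL5A1 (chr9:134641553-134641802, plus strand): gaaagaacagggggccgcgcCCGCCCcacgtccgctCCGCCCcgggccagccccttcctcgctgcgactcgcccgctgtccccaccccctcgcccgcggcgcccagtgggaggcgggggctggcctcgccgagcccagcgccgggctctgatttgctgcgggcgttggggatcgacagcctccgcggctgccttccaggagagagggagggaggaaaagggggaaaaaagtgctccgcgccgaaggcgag
COL6A2 (chr21:46097862-46098111, plus strand): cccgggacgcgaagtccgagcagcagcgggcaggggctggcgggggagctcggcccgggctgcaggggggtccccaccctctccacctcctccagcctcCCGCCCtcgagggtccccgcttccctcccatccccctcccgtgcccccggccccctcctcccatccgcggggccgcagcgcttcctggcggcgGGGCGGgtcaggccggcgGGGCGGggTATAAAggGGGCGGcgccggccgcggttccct
COL6A3 (chr2:237414165-237414414, minus strand): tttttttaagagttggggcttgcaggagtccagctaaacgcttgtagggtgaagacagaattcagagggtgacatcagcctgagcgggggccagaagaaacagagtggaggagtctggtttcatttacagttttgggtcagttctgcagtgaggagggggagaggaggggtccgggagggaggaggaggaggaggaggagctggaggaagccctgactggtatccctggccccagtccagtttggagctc
COL17A1 (chr10:104085881-104086130, minus strand): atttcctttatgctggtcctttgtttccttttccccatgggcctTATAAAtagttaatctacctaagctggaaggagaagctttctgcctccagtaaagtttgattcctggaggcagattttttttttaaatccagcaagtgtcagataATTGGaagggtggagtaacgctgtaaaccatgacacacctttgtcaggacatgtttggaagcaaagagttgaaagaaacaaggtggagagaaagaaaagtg
COL4A1 and COL4A2 (chr13:110307158-110307283, plus strand): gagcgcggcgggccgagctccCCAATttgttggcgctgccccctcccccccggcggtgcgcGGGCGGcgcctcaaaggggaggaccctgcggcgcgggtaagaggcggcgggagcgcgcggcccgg

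COL6A2 held 4 GC boxes and a TATA box and COL5A1 held 2 GC boxes. The COL6A3 window held none of the 5 motifs, and COL17A1 held a TATA box and a CCAAT box. In the gene coordinates deposited with the counts, these genes start upstream of RefSeq, so each window lies partly within the gene body. COL6A3 starts there at 237414375 and COL17A1 at 104085957, so most of the COL6A3 window lies within the gene body. COL5A1 starts at 134641774 and COL6A2 at 46098097. The shared stretch of COL4A1 and COL4A2 held 1 CCAAT and 1 GC box. Over the collagen genes with a window, the GC box was present in 10 of the 11 called higher with SCH772984 and in 0 of the 3 called lower. It was present in 18 of all 32 collagen windows (56.2%) and in 42.6% of all 35116 promoters in the table. COL4A1 and COL4A2 share a single stretch and count as 2 of the 10. COL16A1, also among the 10, and COL13A1, among the 3 called lower, passed the filter through 1 group alone and so had to differ. TATAAA was in 2 of the 11 and in 2 of the 3 (10.7% of all promoters), and CCAAT in 3 of the 11 and 1 of the 3 (32% of all). TGANTCA (6.57% of all) and CCGGAAG (8.52% of all) were in none of these 14 windows. These counts are a description of letters in short windows and were not tested. COL1A1, COL1A2, COL2A1, COL3A1, COL5A2, COL6A1, COL6A5, COL8A1, COL9A3, COL14A1, COL20A1 and COL22A1 were not searched.

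The fibrillar class held most of the collagen RNA and most of the rise. COL5A2, on chromosome 2 (189031896 to 189225312, minus strand, GRCh38), had 1144, 1104 and 1051 CPM in DMSO, 1076, 1210.0 and 1179 with compound 1, and 3630.3, 3667 and 3368 with SCH772984. The 3 SCH772984 libraries lay far above the other 6, which overlapped. The log2 fold change was 1.69 ± 0.06 (SE), a 3.22-fold rise (edgeR adjusted p = 2.05e-27).

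COL3A1, the single chain of type III, lies 19149 bases from COL5A2 on the opposite strand. It had 7.79, 7.18 and 6.46 CPM in DMSO, 7.00, 4.49 and 4.88 with compound 1, and 50.4, 46.8 and 40.3 with SCH772984. Every SCH772984 library exceeded every other library, and the rise was 6.36-fold (log2 fold change 2.67 ± 0.12, edgeR adjusted p = 2.16e-23).

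The other chains of type V moved with COL5A2. COL5A1, the α1 chain, had 4.92, 4.31 and 5.36 CPM in DMSO, 4.20, 7.62 and 5.72 with compound 1, and 35.3, 35.4 and 36.5 with SCH772984. Its rise of 7.31-fold (log2 fold change 2.87 ± 0.14, edgeR adjusted p = 4.59e-23) left the groups without overlap. COL5A3, the α3 chain, went from 2.54 to 2.74 CPM in DMSO to 15.2 to 19.8 CPM, a 6.31-fold rise (edgeR adjusted p = 5.98e-17). All 3 chains rose, but COL5A2 remained in excess: its FPKM was 294 to 385 times that of COL5A1 in DMSO and 138 to 155 times with SCH772984.

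The type I chains were unequal at every condition. COL1A2 had 507, 458 and 482 CPM in DMSO, 532, 468 and 499.6 with compound 1, and 1114, 1019.7 and 984 with SCH772984, which was a 2.15-fold rise (log2 fold change 1.10 ± 0.06, edgeR adjusted p = 1.51e-20). COL1A1, whose chain usually forms type I collagen together with that of COL1A2, had 4, 1 and 2 counts in DMSO, 3, 4 and 1 with compound 1, and 29, 28 and 48 with SCH772984. Its groups did not overlap, and the ratio of the summed normalised counts was 10.8 (exact 95% interval 5.07 to 27.6, counting error only), with COL1A1 passing the filter only through SCH772984. Even then COL1A1 reached 0.271 ± 0.0492 FPKM against 93.2 ± 5.99 FPKM for COL1A2. Per length COL1A2 was 269 to 407 times COL1A1 with SCH772984, and the 1 to 4 counts of COL1A1 in DMSO were too few for such a ratio.

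Of the remaining fibrillar genes, COL11A2, a chain of type XI, rose 5.14-fold from 0.994 to 1.44 CPM in DMSO to 4.82 to 7.52 CPM (log2 fold change 2.36 ± 0.28, edgeR adjusted p = 5.00e-10). COL27A1, the single chain of type XXVII, rose less, from 8.54 to 10.3 CPM to 11.3 to 17.0 CPM (log2 fold change 0.59 ± 0.16, edgeR adjusted p = 0.00116), and its lowest SCH772984 library was close to the highest DMSO library. COL2A1, COL11A1 and COL24A1 had at most 3 counts in any library. Summed over the 11 fibrillar genes, the level was 1558 to 1678 CPM in DMSO, 1637 to 1706 with compound 1 and 4472 to 4868 with SCH772984.

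The chains of type VI moved in opposite directions. COL6A1 and COL6A2, neighbours on chromosome 21 with 93046 bases between them and on the same strand, encode the α1 and α2 chains. COL6A1 had 116, 100.04 and 109 CPM in DMSO, 109.8, 106 and 104 with compound 1, and 401, 405 and 428 with SCH772984, a 3.79-fold rise (log2 fold change 1.92 ± 0.07, edgeR adjusted p = 3.11e-28). COL6A2 had 69.9, 66.1 and 64.1 CPM in DMSO, 75.0, 63.7 and 69.4 with compound 1, and 241, 234 and 265 with SCH772984, a 3.68-fold rise (log2 fold change 1.88 ± 0.07, edgeR adjusted p = 5.16e-27). For both genes the SCH772984 libraries stood clear of all 6 others.

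COL6A3, on chromosome 2, encodes the large α3 chain that assembles with the COL6A1 and COL6A2 chains. It had 158, 153 and 168 CPM in DMSO, 148, 168 and 158 with compound 1, and 47.5, 50.2 and 56.9 with SCH772984. All SCH772984 libraries were below all others, and the decrease was 3.10-fold (log2 fold change -1.63 ± 0.07, edgeR adjusted p = 9.70e-24). Per length, COL6A1 was 2.38 to 2.70 times COL6A3 in DMSO, 2.32 to 2.72 times with compound 1 and 27.6 to 31.1 times with SCH772984. COL6A1 to COL6A2 stayed within 1.48 to 1.74 in all 9 libraries. With the longest protein-coding transcript as the length in place of all merged exons, a choice made after the data were seen, COL6A1 to COL6A3 was 1.65 to 1.86 in DMSO and 19.1 to 21.4 with SCH772984. COL6A5 was at 0 and COL6A6 had at most 4 counts.

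**Figure D3:**
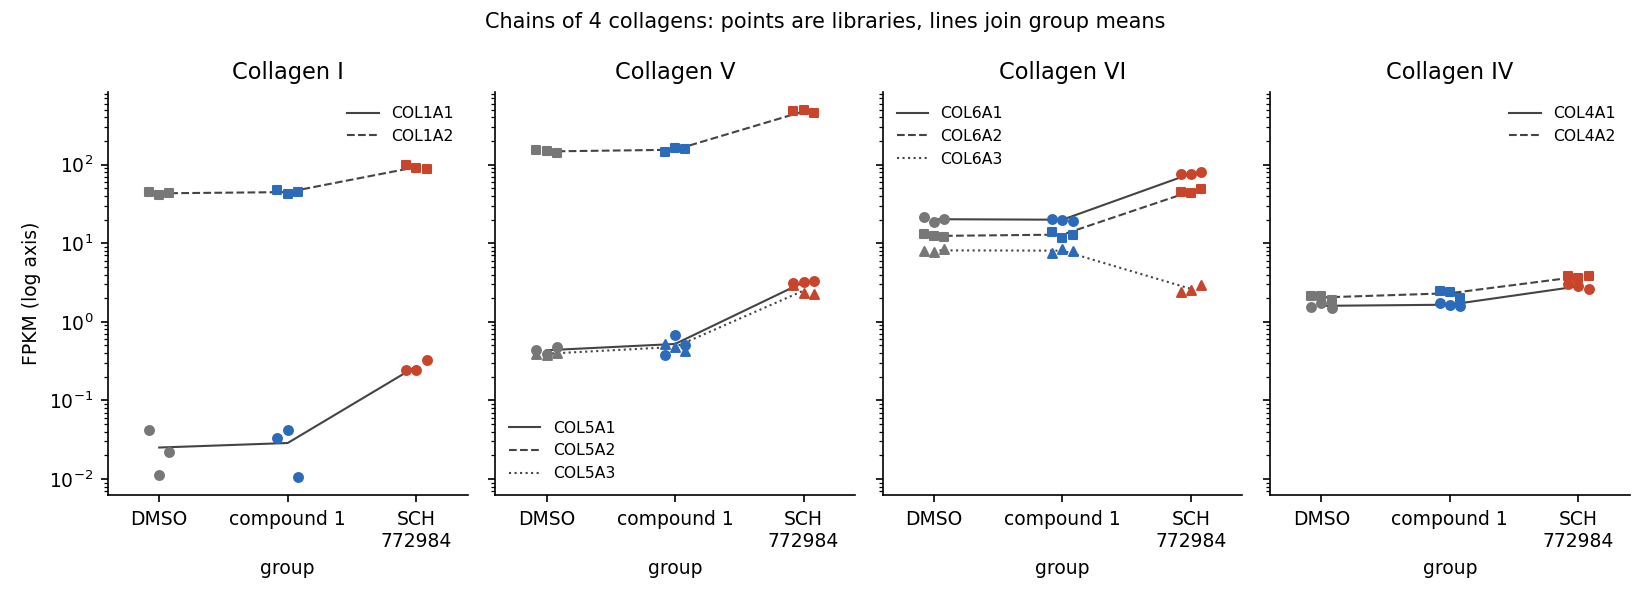
FPKM of the chains of collagens I, V, VI and IV in each library (points, log axis, coloured by group), with lines joining the group means of each gene. In the type VI panel COL6A1 and COL6A2 go up together with SCH772984 while COL6A3 goes down to 2.42 to 2.90 FPKM, and in the type I panel COL1A1 stays far below COL1A2 in all groups.

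The basement membrane pair COL4A1 and COL4A2 lies head to head on chromosome 13. In the gene coordinates deposited with the counts COL4A2 starts earlier than in RefSeq. The gene bodies therefore overlap, and the RefSeq stretch shown above lies within that of COL4A2. COL4A1 starts there at 110307233 on the minus strand, so part of the stretch lies within COL4A1 as well. COL4A1 had 22.7, 25.6 and 22.3 CPM in DMSO, 25.5, 24.3 and 23.2 with compound 1, and 44.1, 41.9 and 39.1 with SCH772984. COL4A2 had 40.7, 40.6 and 36.9 CPM in DMSO, 48.1, 46.8 and 38.9 with compound 1, and 73.7, 70.0 and 73.2 with SCH772984. Both were higher in every SCH772984 library than in any other, COL4A1 by 1.76-fold (log2 fold change 0.82 ± 0.10, edgeR adjusted p = 4.49e-10) and COL4A2 by 1.83-fold (0.87 ± 0.08, edgeR adjusted p = 4.34e-13). The ratio of COL4A2 to COL4A1 per length was 1.21 to 1.47 over the 9 libraries. COL4A3, COL4A4, COL4A5 and COL4A6, the chains of specialised basement membranes, had at most 8 counts in any library.

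Of the 4 transmembrane genes 2 were tested, and both were called lower, COL17A1 in all alternatives run and COL13A1 on few counts. COL17A1, a component of hemidesmosomes, had 137, 146 and 128 CPM in DMSO, 129, 119 and 122 with compound 1, and 87.5, 78.8 and 76.7 with SCH772984. Its groups did not overlap between SCH772984 and the rest, and it fell 1.70-fold (log2 fold change -0.76 ± 0.07, edgeR adjusted p = 5.61e-13). COL13A1, found at cell adhesion sites, was near the limit of expression, with 12, 21 and 10 counts in DMSO, 6, 10 and 20 with compound 1 and 7, 6 and 8 with SCH772984. It passed the filter only through DMSO. Its level was 2.82-fold lower (log2 fold change -1.50 ± 0.45), and without DMSO replicate 2, the highest library, the call was lost at -1.11 (edgeR adjusted p = 0.0715). COL23A1 had at most 3 counts and COL25A1 had 0.

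COL18A1, the basement membrane multiplexin, changed least. It had 190, 173 and 185 CPM in DMSO, 204, 167 and 184 with compound 1, and 232, 238 and 267 with SCH772984, a 1.34-fold rise without overlap (log2 fold change 0.42 ± 0.07, edgeR adjusted p = 2.25e-07). The gene shares 1401 bases, 16.4% of its exons, with SLC19A1, a folate carrier on the opposite strand, and the strand setting of the counting is not given in the sources used here. SLC19A1 fell 3.99-fold with SCH772984 (edgeR adjusted p = 2.43e-26), and how reads of the shared bases were assigned was not tested.

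COL7A1, which forms the anchoring fibrils below epithelia, rose 3.52-fold from 2.87 to 4.71 CPM to 11.3 to 16.1 CPM (log2 fold change 1.82 ± 0.19, edgeR adjusted p = 1.66e-11). COL26A1 had 23, 12 and 5 counts in DMSO and 64, 62 and 111 with SCH772984, a 4.19-fold rise (log2 fold change 2.07 ± 0.30, edgeR adjusted p = 1.28e-07). Its DMSO libraries differed from one another more than those of the higher genes, but none reached the SCH772984 libraries.

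A trio of fibril-associated (FACIT) genes appeared mainly with SCH772984. COL16A1 had 0, 0 and 0 counts in DMSO, 2, 1 and 0 with compound 1, and 23, 21 and 30 with SCH772984, so its level was at least 5.89-fold higher than the limit of 3 counts per DMSO library. COL20A1 had 5, 6 and 7 counts in DMSO, 11, 11 and 4 with compound 1 and 37, 39 and 40 with SCH772984, a 4.58-fold higher level (log2 fold change 2.20 ± 0.38). COL9A3, a chain of type IX, had 0, 2 and 0 counts in DMSO and 8, 20 and 21 with SCH772984, and did not pass the filter. Its ratio was 17.7 (exact 95% interval 4.63 to 149.9, counting error only). All its DMSO counts lay under the limit of 3, so the size of the difference is not read from this ratio. COL16A1 and COL20A1 passed the filter only through SCH772984. COL9A3 shares 45 exon bases with TCFL5 on the opposite strand, which had up to 668 counts, and how reads of these bases were assigned was not tested. None of the 3 exceeded 3.29 CPM in any library. Their DMSO and SCH772984 libraries did not overlap, as in 74.3% of all genes tested. Since the 3 were picked through their SCH772984 level, nothing is read from this.

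Summed over the 44 genes, collagen took 0.218% to 0.230% of the counts in the DMSO libraries, 0.228% to 0.239% with compound 1 and 0.612% to 0.642% with SCH772984. In CPM the sums were 2279.7 to 2421 in DMSO, 2388 to 2417 with compound 1 and 5709 to 6021 with SCH772984. COL5A2 alone provided 46.1% to 48.0% of the collagen counts in DMSO, 45.1% to 50.2% with compound 1 and 59.0% to 61.6% with SCH772984. Without COL5A2 and COL1A2 the sum still went from 736 to 771 CPM in DMSO to 1269.6 to 1357 CPM with SCH772984, and it was 731 to 780.3 with compound 1.

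**Figure D4:**
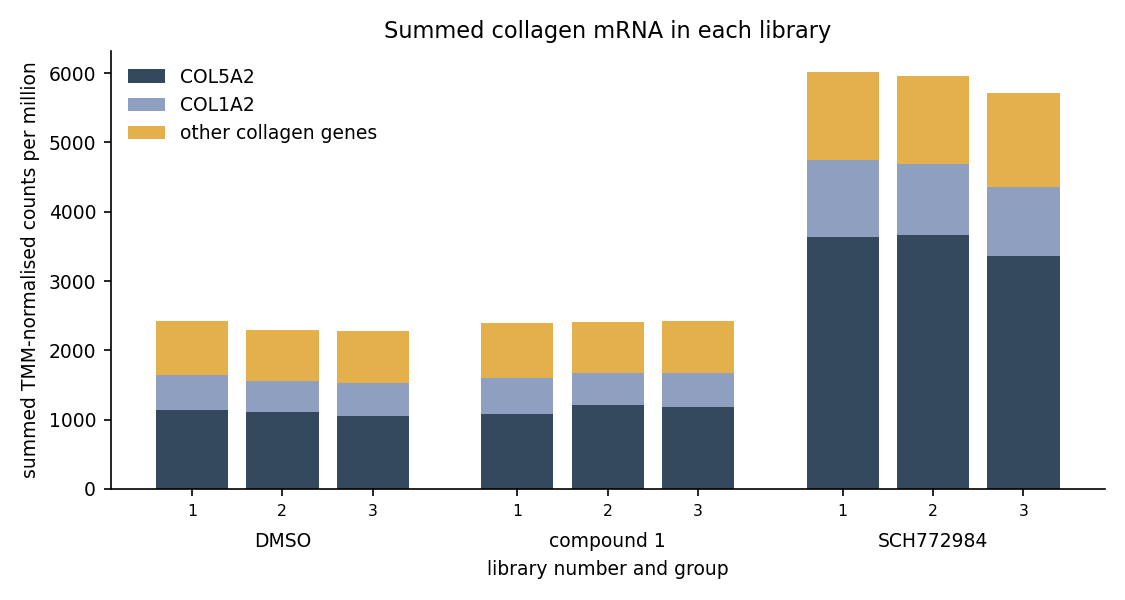
Summed collagen level of each library in TMM-normalised CPM, stacked as COL5A2, COL1A2 and the other 42 collagen genes, by group and library number. The DMSO and compound 1 bars lie between 2279.7 and 2421 CPM and the SCH772984 bars between 5709 and 6021 CPM, with COL5A2 as the largest part of each.

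Inhibition of TBK1/IKKε moved no collagen gene past the threshold. With compound 1 against DMSO, 17 collagen genes were tested, and edgeR called 0 at an adjusted p under 0.05 and 0 at an unadjusted p under 0.05. Over all 12849 genes tested, 0.490% were called higher, 0.374% lower, and 15.0% had an unadjusted p under 0.05 in either direction. DESeq2 likewise called 0 of the collagen genes. Their log2 fold changes ran from -0.39 for COL3A1 to 0.62 for COL11A2 with a median of 0.06, against 0.00 over all genes.

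The intervals show what could have been missed. For COL5A2 the 95% interval of the log2 fold change was -0.06 to 0.21, for COL1A2 -0.09 to 0.19, for COL6A1 -0.19 to 0.15 and for COL6A3 -0.17 to 0.15, so a rise of COL5A2 beyond 1.16-fold lay outside its interval. COL17A1 had -0.15 ± 0.07 (SE), with an interval of -0.30 to 0.01. For the low genes the intervals were wide, from -1.24 to 0.67 for COL13A1 and from -0.73 to 1.09 for COL26A1. COL11A2 had 1.87 to 2.05 CPM with compound 1 against 0.994 to 1.44 in DMSO, and COL5A3 had 2.91 to 3.55 against 2.54 to 2.74. Their libraries did not overlap, which held for 2 of the 17 collagen genes and for 20.9% of all genes tested, and their edgeR adjusted p were 0.394 and 0.639.

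The 3 DMSO libraries serve as control for both inhibitors, which were therefore also compared directly. In SCH772984 against compound 1, 19 collagen genes were tested, 16 were higher and 2 lower (edgeR, adjusted p under 0.05), where 33.7% of all genes were higher and 32.6% lower. At least 2-fold, 13 were higher and 1 lower, against 16.5% and 10.1%. COL5A2 was 3.08-fold higher (log2 difference 1.62 ± 0.08, edgeR adjusted p = 7.74e-13) and COL3A1 8.40-fold higher (3.07 ± 0.16, edgeR adjusted p = 8.58e-13). COL6A3 was 3.06-fold lower (-1.62 ± 0.10, edgeR adjusted p = 8.85e-12) and COL17A1 1.52-fold lower (-0.61 ± 0.09, edgeR adjusted p = 5.56e-06). For COL27A1 the difference was 0.36 ± 0.17 with an interval of 0.01 to 0.71 and an edgeR adjusted p of 0.0665, and its libraries overlapped. In the other 18 the libraries did not overlap, as in 69.3% of all genes tested. COL1A1 and COL16A1 passed the filter only through SCH772984, and without them 14 of 17 were higher and 2 lower (31.2% and 33.7% of all genes that passed likewise), and at least 2-fold 11 and 1 (13.2% and 10.0%).

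Genes that make, trim and bind collagen were taken as a list of 60, of which 28 act in biosynthesis, 20 in processing and 12 as receptors. With SCH772984 against DMSO 43 were tested, and 20 were higher and 15 lower by edgeR at an adjusted p under 0.05, with a median log2 fold change of 0.08. These are 46.5% and 34.9% of the 43, near the 37.2% and 35.5% over all genes tested, and nothing particular to the list is read from them. How this split differs from that of the collagen genes was not tested. Library size alone gave 21 and 8. Of these calls 9 higher and 4 lower were at least 2-fold (18.2% and 10.6% over all genes).

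In biosynthesis, 12 of 27 tested genes rose (44.4%) and 10 fell (37.0%), shares near those of all genes. SERPINH1, the chaperone HSP47 that binds procollagen in the endoplasmic reticulum, had 347, 316 and 295 CPM in DMSO and 89.1, 86.8 and 94.9 with SCH772984, a 3.55-fold decrease without overlap (log2 fold change -1.83 ± 0.07, edgeR adjusted p = 6.05e-27). PLOD3, a lysyl hydroxylase and glycosyltransferase of collagen, went from 404 to 429.8 CPM to 158 to 168 CPM (-1.36 ± 0.06, edgeR adjusted p = 6.57e-24). Among the genes that rose 2-fold or more, CREB3L1, a transcription factor of the secretory pathway that activates collagen genes, went from 13.9 to 16.8 CPM to 42.1 to 48.9 CPM (1.54 ± 0.10, edgeR adjusted p = 1.76e-17). The prolyl isomerases FKBP7 (1.72 ± 0.35), FKBP9 (1.21 ± 0.06) and FKBP14 (1.03 ± 0.09) rose as well, so the fold changes of this group ran both ways.

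In processing, 9 of 20 genes were tested, of which 5 were higher and 2 lower. TLL2 passed the filter only through SCH772984 and so had to differ, and without it 4 of 8 were higher and 2 lower, where 34.4% and 37.0% of all genes that passed likewise were. TLL2, a tolloid proteinase related to the procollagen C-proteinase BMP1, had 5, 2 and 3 counts in DMSO and 121, 105 and 145 with SCH772984, a log2 fold change of 4.69 ± 0.32. SPARC, a collagen-binding matrix protein, had 10, 7 and 3 counts in DMSO and 57, 62 and 65 with SCH772984 (2.71 ± 0.34, edgeR adjusted p = 2.00e-09). The libraries of SPARC, like TLL2 a gene of few counts, did not overlap between the groups, as in 74.3% of all genes tested. FN1, fibronectin, was also higher (1.72 ± 0.34, edgeR adjusted p = 1.89e-05). TGM2, a transglutaminase that cross-links matrix proteins, had 604, 592 and 553 CPM in DMSO and 64.6, 64.2 and 70.3 with SCH772984, an 8.80-fold decrease (-3.14 ± 0.07, edgeR adjusted p = 1.11e-35).

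Among collagen receptors, 3 of 7 tested rose and 3 fell (42.9% each), again near the shares of all genes. DDR1, a receptor tyrosine kinase for collagen, had 74.7, 79.0 and 74.4 CPM in DMSO and 317, 291 and 314 with SCH772984, a 4.03-fold rise (2.01 ± 0.07, edgeR adjusted p = 1.18e-28). MRC2, the endocytic collagen receptor, had 44.0, 41.1 and 40.8 CPM in DMSO and 192, 191 and 199 with SCH772984, a 4.60-fold rise (2.20 ± 0.07, edgeR adjusted p = 6.83e-29). SDC1, a syndecan, fell 2.33-fold from 182 to 209 CPM to 77.1 to 93.5 CPM (-1.22 ± 0.07, edgeR adjusted p = 7.18e-19). In all 3, which were picked for a call of at least 2-fold, the groups did not overlap, as in 74.3% of all genes tested.

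With compound 1, 41 of the 60 were tested, 0 were called by edgeR or by DESeq2, and 2 had an unadjusted p under 0.05, where 15.0% of all genes did and 0.490% and 0.374% were called higher and lower. The 2 were P3H2, a prolyl 3-hydroxylase, at -0.41 and FKBP14 at 0.37 on the log2 scale. Without compound 1 replicate 1, 2 became higher and 4 lower at an adjusted p under 0.05, namely FKBP14, ITGB1, COLGALT1, P3H2, LOXL2 and SDC1, and over all genes the number of calls went from 63 higher and 48 lower to 453 and 798. Without any other single library the calls over all genes dropped, to between 5 and 27 higher and between 3 and 24 lower. With any 1 of these 6 libraries left out, edgeR called 0 collagen genes.

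**Figure D5:**
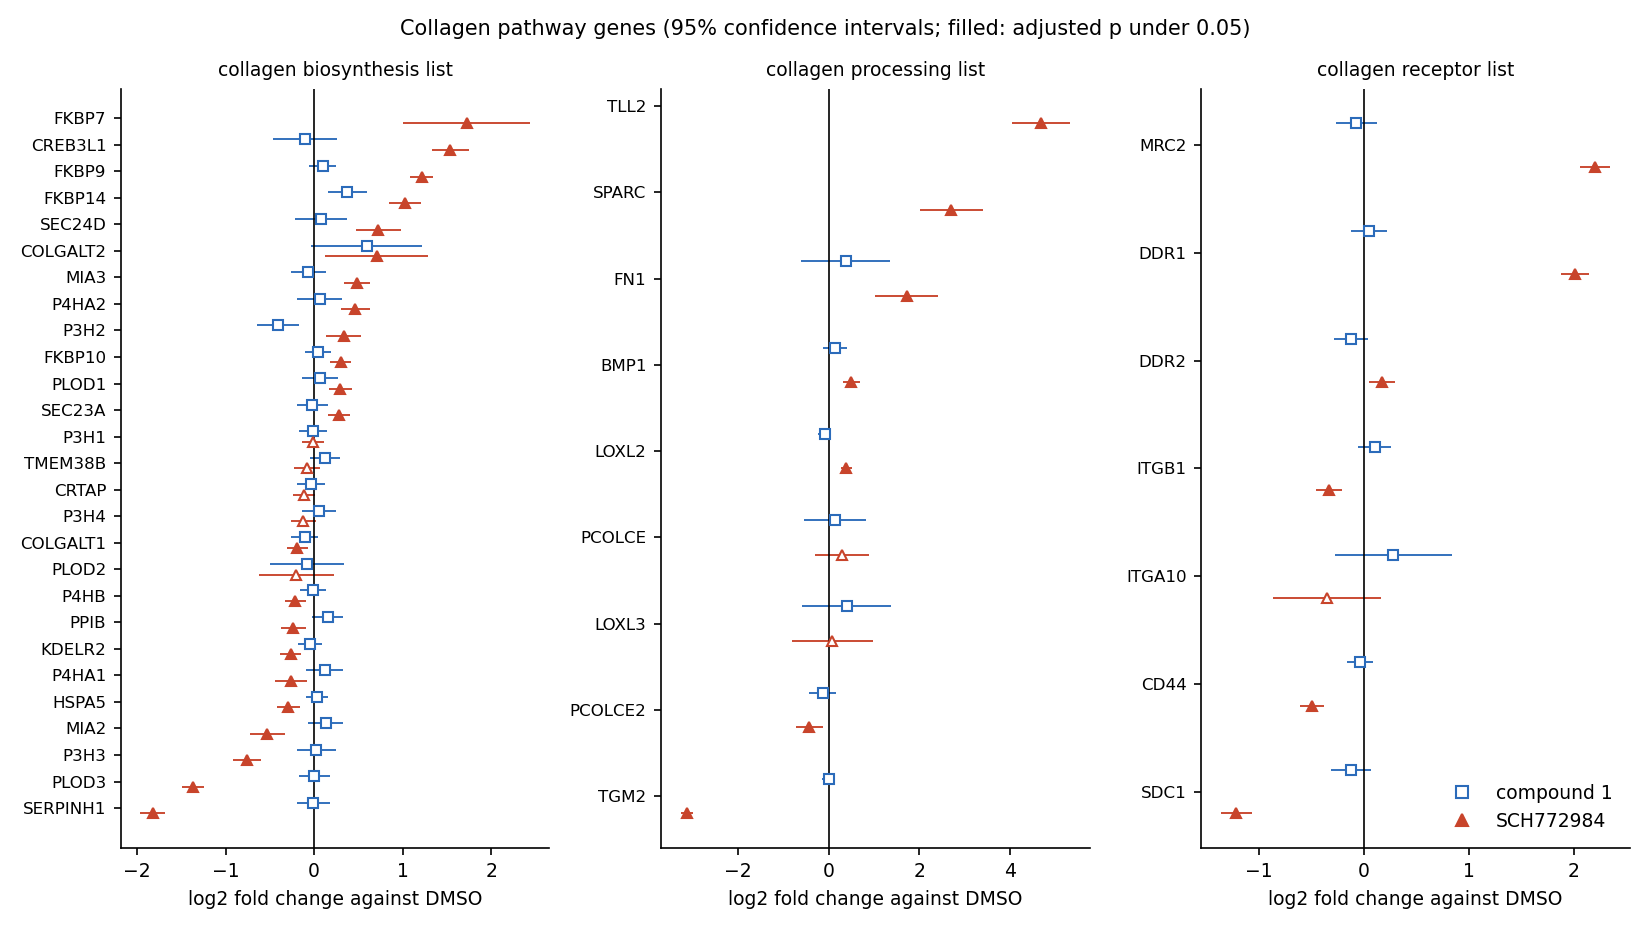
Log2 fold change against DMSO of the tested genes for collagen biosynthesis, processing and receptors (95% confidence intervals; triangles SCH772984, squares compound 1; filled symbols passed an adjusted p of 0.05; a gene without a square did not pass the filter with compound 1). With SCH772984 the filled symbols lie on both sides of 0, from TGM2 at -3.14 to TLL2 at 4.69, which passed the filter only through SCH772984, and no compound 1 symbol is filled.

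Markers of other cell types were measured beside the collagen genes. The 10 fibroblast and stellate cell markers summed to 21.0 to 27.0 CPM in DMSO, 21.3 to 30.4 with compound 1 and 38.0 to 41.2 with SCH772984, and 2, 2 and 3 of the 10 were expressed. In DMSO 7 of the 10 were at 0. PDGFRB went from 0, 0 and 2 counts in DMSO to 82, 64 and 99 with SCH772984 and passed the filter only through the latter. FBLN1 rose 1.45-fold from 19.6 to 25.1 CPM to 31.4 to 32.4 CPM (edgeR adjusted p = 1.68e-05). ACTA2 had 1.10 to 1.85 CPM in DMSO and 1.18 to 2.08 CPM with SCH772984 (log2 fold change 0.13 ± 0.38, edgeR adjusted p = 0.77). FAP, POSTN, THY1 and DPT were at 0 throughout, and DCN and LUM, which are also on the processing list, had 1 count each in 1 SCH772984 library. The epithelial list summed to 3469.5 to 3734 CPM in DMSO and 1131 to 1279 with SCH772984, through lower KRT8 and KRT18, and VIM went from 2405 to 2579 to 1933 to 2289 CPM. The endothelial list, with only CDH5 expressed, was at 2.87 to 4.49 CPM in DMSO and at most 0.537 with SCH772984. The part of these differences in the collagen changes was not tested.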

How the data were processed

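The authors deposited a table of whole-number read counts per gene for 9 libraries, without normalization. Sequencing was done by Novogene, and the submitters' processing notes name HISAT2 2.0.5, featureCounts 1.5.0-p3 and hg38. The strand setting is not given in the sources used here. All 58735 identifiers matched GENCODE release 29, whose merged exon lengths gave FPKM from TMM-scaled counts. Libraries were grouped by their labels, with 3 per group.

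Each comparison was fitted on its own 6 libraries with edgeR 4.0.16 in R 4.3.3 (filterByExpr with a minimum count of 10 and minimum total of 15, TMM, robust quasi-likelihood test, Benjamini-Hochberg adjustment over all genes). The procedure was tested on simulated data. DESeq2 1.42.0, other scalings and filters, the replicate number as a block, each library left out and a gene length trend were alternatives. Intervals of ratios for genes with few counts cover counting error only.

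All 21 collagen genes with a mean of 1 CPM or more in a group or a call were named, and pathway genes with a log2 fold change of at least 1 and a call. The genes and lists were chosen with earlier results of these data known.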

Additional observations from a re-analysis of the deposited data

How the results depend on the processing

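Alternatives changed the tool, scaling, filter, block or library. Under every one the collagen genes higher with SCH772984 numbered 12 to 20 and those lower 2 or 3, and compound 1 had 0. With SCH772984 against DMSO the number of all genes tested changed with the filter, from 11970 to 27313. Higher genes made up 48.7% to 61.5% of all calls there. Of 274 values of single collagen genes with SCH772984 against DMSO, 273 kept direction and call, the exception being COL13A1 without DMSO replicate 2. Against compound 1, COL27A1 passed the threshold in 4 alternatives (adjusted p 0.0157 to 0.0442). At least 2-fold, 13 collagen genes were higher and 1 lower in SCH772984 against compound 1, and 9 pathway genes were higher and 4 lower with SCH772984. Library size alone left 8 pathway genes lower, and with compound 1 it moved higher genes from 56.8% to 77.3% of all calls. With compound 1, pathway calls were 1 higher and 1 lower at an unadjusted p, 1 lower with no filter, and 0 to 2 higher and 0 to 4 lower with libraries left out. Replicate numbers did not pair the libraries (correlations of same-numbered libraries from -0.0893 to 0.13), and the replicate block gave 1 lower pathway gene with compound 1 (P3H2), raised all calls there from 63 and 48 to 193 and 219, and changed no collagen call. A threshold of 5 CPM left 11 collagen genes expressed in DMSO, and 1 FPKM left 10 in DMSO and 9 with compound 1.

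The sign of small compound 1 changes was not fixed. Log2 fold changes turned to 0.0088 for COL6A1 and 0.0207 for COL6A3 by library size alone and to 0.0728 for COL6A3 without the gene length trend, an alternative chosen after the data were seen. With single libraries left out they ranged from -0.85 to 0.11 for COL13A1, from -0.0561 to 0.0799 for COL18A1, from -0.19 to 0.78 for COL26A1, from -0.0767 to 0.0284 for COL6A1 and from -0.0604 to 0.0367 for COL6A3. The causes were not tested. The median of the tested collagen genes with SCH772984 ranged from 1.47 with at least 10 counts in every library to 2.02 by library size alone. Counts do not separate transcripts, so levels per length depend on the length used.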

Other observations

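Genes that carry a collagen symbol but are not protein-coding were nearly silent. The 8 antisense genes and pseudogenes had at most 10 counts in any library, the highest being COL6A4P1, a pseudogene of a type VI chain. Further collagen pairs lie head to head like COL4A1 and COL4A2 or in tandem, namely COL4A3 with COL4A4 (112 bases between starts), COL4A5 with COL4A6 (347 bases) and COL6A5 with COL6A6, and none of these 6 genes passed 8 counts in any library.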
